A study of Mus musculus with 2 samples.

Results

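The mouse genes Ppp3r1, Ppp3cb and Ppp3ca encode subunits of calcineurin, and the reads that 2 iCLIP libraries placed on their transcripts are described here. Calcineurin is the calcium- and calmodulin-activated protein phosphatase that is abundant in neurons. Its catalytic A subunit carries the active site and is encoded by Ppp3ca (the alpha form, the main one in brain) or Ppp3cb (the beta form), and its regulatory B subunit, a calcium-binding protein with EF hands, is encoded by Ppp3r1. The enzyme removes phosphate from NFAT transcription factors, which then enter the nucleus, and from synaptic proteins such as dynamin 1, and it is the target of cyclosporin A and FK506. Rbfox1 is a neuronal RNA-binding protein known for the control of splicing. It also has cytoplasmic forms, and it recognises RNA through the short motif UGCAUG or its core GCAUG.

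The study asked where Rbfox1 binds RNA in the cytoplasm. Forebrain neurons of the mouse kept in culture for 14 days in vitro were exposed on ice to 254 nm ultraviolet light at 500 mJ/cm2, which joins proteins to RNA in contact with them, and were lysed in part for 1 min with 0.1% Triton X-100. From the released cytoplasmic material, 1 library was made with anti-Rbfox1 antibodies and 1 with anti-Flag antibodies as control. No genotype, treatment or number of animals behind the cultures is given for either library, and there is no replicate. The deposited files hold 64820 anti-Rbfox1 and 569 anti-Flag reads. Both precipitates came from the same kind of fraction, and reads per gene were not set against the amount of each RNA, since no input library was used here.

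Members were reads that lay wholly inside the window of a gene, on its strand, in the mm9 build of the mouse genome. The windows were chromosome 11 from 17055000 to 17103000 on the plus strand for Ppp3r1 (NCBI Gene 19058), chromosome 14 from 21318000 to 21367000 on the minus strand for Ppp3cb (19056), and chromosome 3 from 136330000 to 136605000 on the plus strand for Ppp3ca (19055). They held 1033 of the 64820 anti-Rbfox1 reads (1.59%, exact 95% interval 1.499 to 1.69) and 5 of the 569 control reads (0.879%, 0.286 to 2.04). The genes were chosen by their read counts and clusters in these same libraries, so the counts are a description and were not tested. Intervals cover counting error only and treat reads as independent. Reads of an amplified library are not independent molecules, so the intervals may be too narrow. With 1 library per antibody, they do not cover variation between libraries. No annotation of mm9 was used here, so the clusters were not placed in exons, introns or untranslated regions, and the names rest on the windows. In the GRCm38.p6 annotation of RefSeq, Ppp3r1 spans 41083 bases, Ppp3cb 47210 and Ppp3ca 268014, so the windows exceed the genes by 6918, 1791 and 6987 bases.

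The transcripts of all 3 genes carry the Rbfox motif in their 3′ untranslated region (3′ UTR), the non-coding stretch after the stop codon. The sites below are shown because they are the letters Rbfox1 is known to recognise. They come from the longest complete coding transcript of each gene in GENCODE M21 (GRCm38), written as DNA 5′ to 3′ with TGCATG in capitals, and numbered from the stop codon onward.
Ppp3r1 site 1: ttggtgtctcTGCATGacatggagtt
Ppp3r1 site 2: catggagtttTGCATGtagatcaatt
Ppp3r1 site 3: aattttcttcTGCATGatacatgtca
Ppp3cb site 1: attttgtgtaTGCATGttttcatttt
Ppp3cb site 2: aagtcaagacTGCATGtcgaaatttt
Ppp3cb site 3: ggaaatattaTGCATGtgcaggacta
Ppp3cb site 4: ataaattccaTGCATGggccgctgct
Ppp3ca site 1: attctgcctaTGCATGttttttaagg
Ppp3ca site 2: taactctaaaTGCATGgtaaccgtta
Ppp3ca site 3: caataaaatgTGCATGaacttaaaga

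Only the sense strand was searched, since the target is RNA, and every TGCATG also counts as a GCATG. The 3′ UTR of Ppp3r1 has 2069 nt and holds 3 TGCATG and 5 GCATG. That of Ppp3cb has 2120 nt and holds 4 and 5, and that of Ppp3ca has 2502 nt and holds 3 and 6. Per kb, TGCATG occurred 1.45 times in Ppp3r1, 1.89 in Ppp3cb and 1.199 in Ppp3ca, against 0.359 over the 3′ UTRs of 20861 genes. Among 3′ UTRs within 20% of the same length, TGCATG was present in 50.9% for Ppp3r1 (2737 genes), 51.8% for Ppp3cb (2692) and 57.5% for Ppp3ca (2515), and the median of such 3′ UTRs was 1 site. The core GCATG is more common. Per kb it occurred 2.42, 2.36 and 2.40 times in Ppp3r1, Ppp3cb and Ppp3ca, against 0.964 over the 20861 genes. It was present in 84.3%, 84.9% and 89.0% of the 3′ UTRs of like length, with a median of 2 sites. In Ppp3r1 sites 1 and 2 began 17 nt apart and ended 530 and 513 nt before the end of the transcript, and site 3 ended 73 nt before it. The sites of Ppp3cb ended 1264, 982, 734 and 679 nt before the end, and those of Ppp3ca 1501, 1197 and 886 nt. The coding sequence and 5′ UTR of the 3 transcripts held 0 TGCATG, and 0, 1 and 2 GCATG in Ppp3r1, Ppp3cb and Ppp3ca. The number of motifs was thus similar in the 3 genes, and its relation to their read counts, given next, was not tested. Matches are letters of an annotated transcript and were not set against the positions of the reads, which are in another build.

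**Figure D1:**
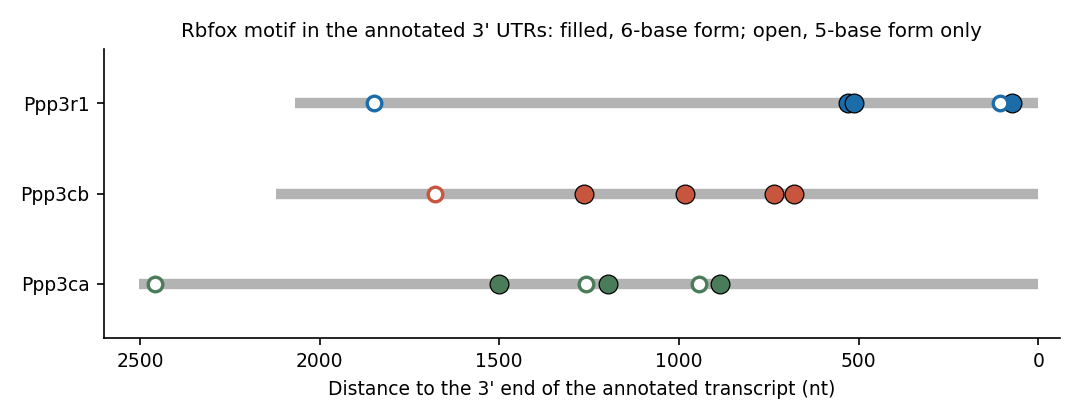
Sites of the Rbfox motif in the annotated 3′ UTR of each gene, by distance to the 3′ end of the transcript in nt (x axis). Grey bars are the 3′ UTRs, filled circles the 6-base form (3 in Ppp3r1, 4 in Ppp3cb, 3 in Ppp3ca) and open circles the 5-base core without the leading base.

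The regulatory subunit gene Ppp3r1 held most reads. It had 553 anti-Rbfox1 reads (0.853% of the library, 95% interval 0.784 to 0.927) at 234 crosslink positions, where the crosslink position is the base just before the 5′ end of a read. The catalytic subunit gene Ppp3cb had 456 reads (0.703%, 0.641 to 0.771) at 232 positions. Its paralogue Ppp3ca had 24 reads (0.0370%, 0.0237 to 0.0551) at 22 positions. Ppp3cb thus held 19 times the reads of Ppp3ca (95% interval 12.6 to 29.96), and Ppp3r1 held 1.21 times those of Ppp3cb (1.07 to 1.38). Per kb of the annotated transcript the counts were 193.4 reads for Ppp3r1, 119.03 for Ppp3cb and 5.04 for Ppp3ca, so the order was the same. RNA levels of the genes were not measured, so a lower count cannot be told apart from less RNA.

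The 1033 reads were on the strand of the gene by the rule that chose them. The opposite strand of the 3 windows held 0 reads in either library. Distances to the nearest reads outside each window were not set against those elsewhere in the library, so they are a description only. The nearest anti-Rbfox1 reads on the same strand outside the Ppp3r1 window lay 75962 nt before it and 18462 nt after it. For Ppp3cb the nearest lay 42436 and 187124 nt away, and for Ppp3ca 1109023 and 1614497 nt away. No anti-Rbfox1 read on the strand of the gene crossed the edge of a window.

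Reads of 1 strand were joined into a cluster wherever neighbouring crosslinks were at most 20 nt apart. The 3 genes held 19 clusters, of which 12 had at least 10 reads. In the whole anti-Rbfox1 library 12.3% of 10134 clusters did. The 12 were 5 of 6 clusters of Ppp3r1, 7 of 8 of Ppp3cb and 0 of 5 of Ppp3ca. The nearest values on either side of that minimum were 9 reads in a Ppp3ca cluster and 16 in a Ppp3cb cluster. At least 100 reads were reached by 3 clusters of Ppp3r1 and 2 of Ppp3cb, against 0.464% of the clusters of the library. Clusters of 2 reads, the smallest size, numbered 1 in Ppp3cb and 2 in Ppp3ca, or 3 of 19, against 48.9% in the library.

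**Figure D2:**
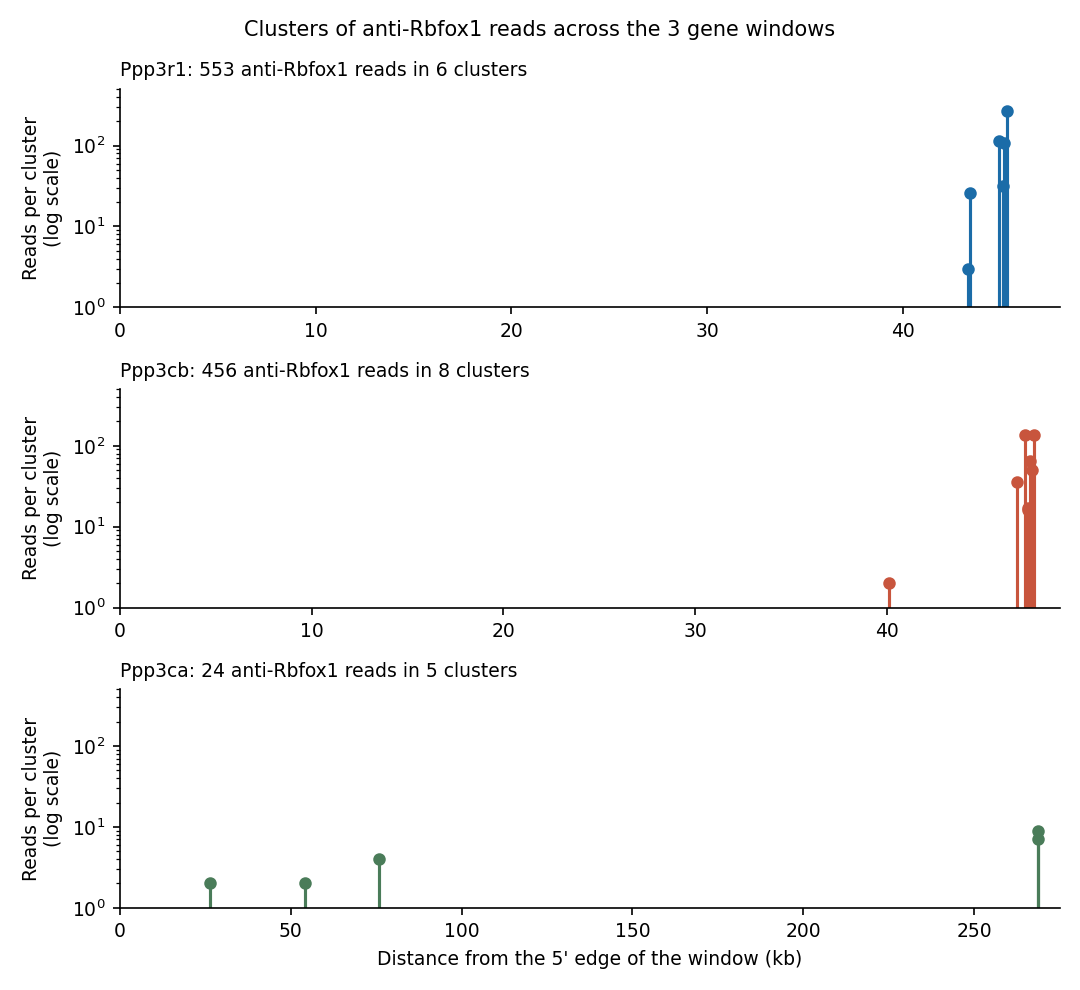
Clusters of anti-Rbfox1 reads in the window of each gene, by distance of the cluster's midpoint from the 5′ edge of the window in kb (x axis) and reads per cluster on a log scale (y axis). All Ppp3r1 clusters and all but 1 Ppp3cb cluster sit near the 3′ edge, while 3 of 5 Ppp3ca clusters lie at 26.4, 54.1 and 75.8 kb, far from it.

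In Ppp3r1, all 553 reads fell in the last 10% of the window and within 2086 nt, from 17098292 to 17100377. They covered 526 nt. From 5′ to 3′, the first cluster held 3 reads (17098292 to 17098338) and the next 26 reads at 11 positions (17098408 to 17098459). After 1369 nt without anti-Rbfox1 reads came a cluster of 115 reads at 50 positions (17099829 to 17099952). A cluster of 32 reads followed (17100075 to 17100141), then 109 reads at 45 positions (17100125 to 17100217) and 268 reads at 104 positions (17100215 to 17100377). The last cluster alone held 48.5% of the gene's reads (95% interval 44.2 to 52.7).

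The cluster of 268 reads ranked 5th of all 10134 clusters by reads and 9th by positions, and 74.3% of the positions it spanned had a read. Its highest positions, 17100287 and 17100329, had 9 reads each, or 3.36% of the cluster. In the 177 clusters of the library with at least 50 reads, the median share of the highest position was 8.46%. Reads per position were 2.58 in this cluster and 2.42 in that of 109 reads, above the upper quartile of those 177 clusters (median 1.88, interquartile range 1.59 to 2.37). The cluster of 115 reads, at 2.3, lay inside that range. So did the Ppp3cb clusters of 136, 135, 64 and 50 reads, at 1.72 to 2.21. The 177 clusters were not matched for depth. Of the 234 positions of the gene, 93 had 1 read and 31 had 5 or more. The cluster of 26 reads was narrower, with 6 reads at position 17098408, 23.1% of the cluster, and all of its reads overlapped at 1 base. The last 4 clusters together formed a stretch of 549 nt with 524 reads, the 5th highest of 7297 stretches (clusters with at most 1000 nt between their outer bases).

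The Ppp3cb reads formed a longer array. Of 456 reads, 454 lay within 1033 nt (21319252 to 21320284), in the last 10% of the window. From 5′ to 3′ on the minus strand, the array began with 36 reads (21320219 to 21320284). After 336 nt came 136 reads at 65 positions (21319703 to 21319882), 17 reads (21319642 to 21319702) and 16 reads (21319604 to 21319664). It ended with 64 reads (21319495 to 21319614), 50 reads (21319386 to 21319508) and 135 reads at 61 positions (21319252 to 21319393). The clusters of 136 and 135 reads stood at either end of a run of 6 adjoining clusters and held 29.8% (25.7 to 34.3) and 29.6% of the gene's reads. They ranked 27th and 29th among all clusters of the library.

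The highest single position of the 3 genes was in Ppp3cb. It was 21319866 and had 10 reads, against at most 9 in Ppp3r1. It lay with 21319857 (7 reads) in the 5′ part of the cluster of 136. With crosslinks joined within 10 nt in place of 20, that cluster divided into 92 reads in its 5′ part and 44 in its 3′ part, and the cluster of 50 into 20 and 30. With 50 nt, the run of 6 became 1 cluster of 631 nt with 418 reads, the 2nd highest of 9498. The highest cluster then held 91.7% of the Ppp3cb and 74.0% of the Ppp3r1 reads, the reverse of the order at 20 nt (29.8% and 48.5%). The stretch of 1033 nt ranked 6th by reads, just behind that of Ppp3r1, and it held 43.9 reads per 100 nt against 95.4. Only 2 reads of Ppp3cb lay elsewhere, in a cluster from 21326905 to 21326943, 6620 nt before the array.

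**Figure D3:**
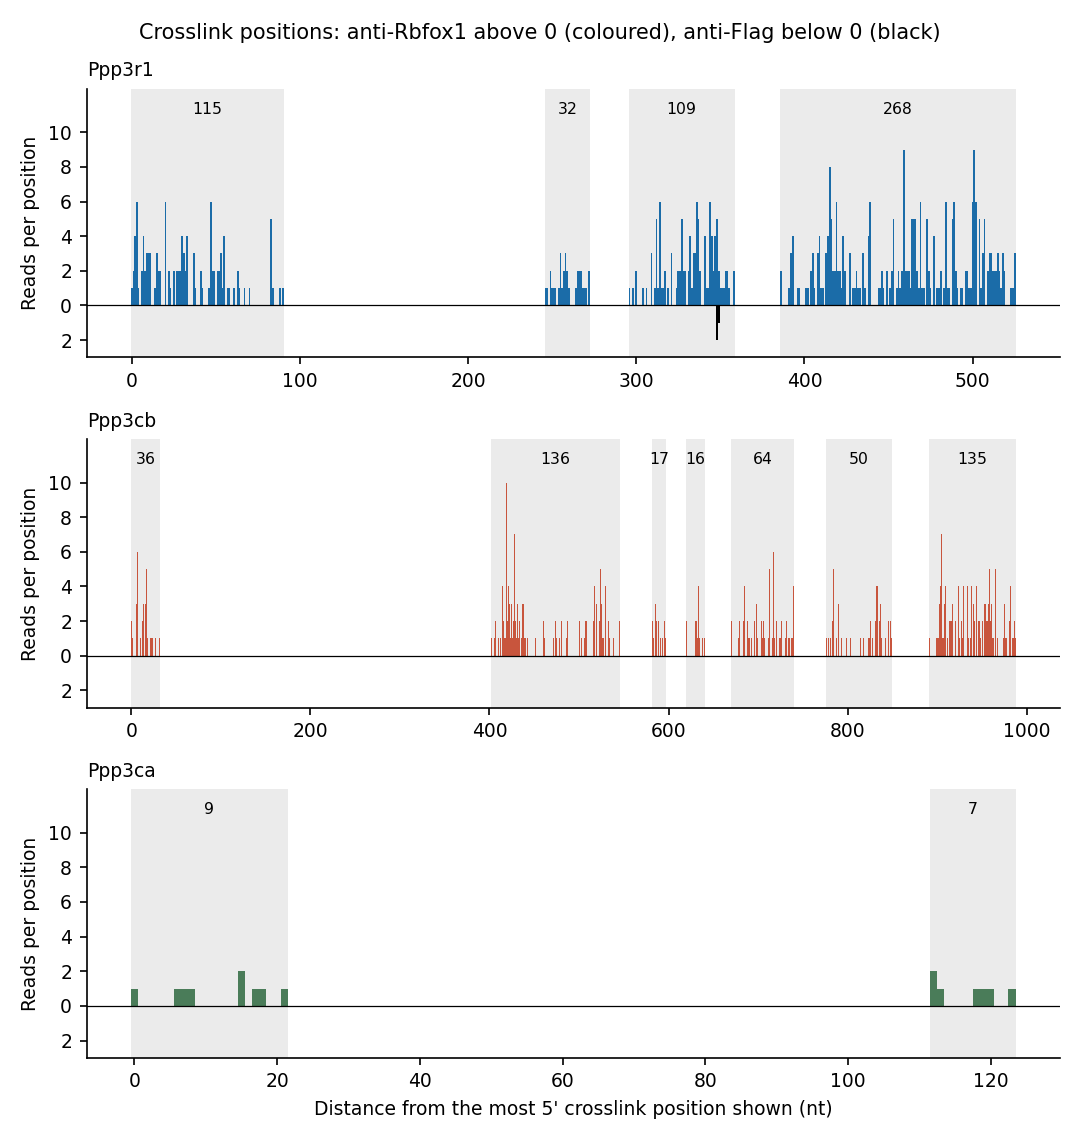
Reads per crosslink position (y axis) against distance in nt from the most 5′ crosslink shown (x axis), in the last 4 clusters of Ppp3r1, the last 7 of Ppp3cb and the last 2 of Ppp3ca. Grey bands are clusters with their reads printed on top. Anti-Flag reads point down in black and occur in the Ppp3r1 panel only, inside the cluster of 109 reads.

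The Ppp3ca reads were few and scattered. They spanned 242367 nt, from 136356377 to 136598743, in clusters of 2, 2, 4, 9 and 7 reads from 5′ to 3′. The clusters of 9 reads at 8 positions (136598586 to 136598641) and 7 reads at 6 positions (136598698 to 136598743) lay 56 nt apart and held 16 of the 24 reads, near the 3′ edge as in the other genes. The other 8 reads lay in 3 clusters (136356377 to 136356393, 136384103 to 136384141 and 136405749 to 136405789), the nearest 192796 nt before them. The highest cluster ranked 1249th in the library, where 12.3% of clusters were deeper. Of the 22 positions, 20 had 1 read, and 136598600 and 136598697 had 2.

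**Figure D4:**
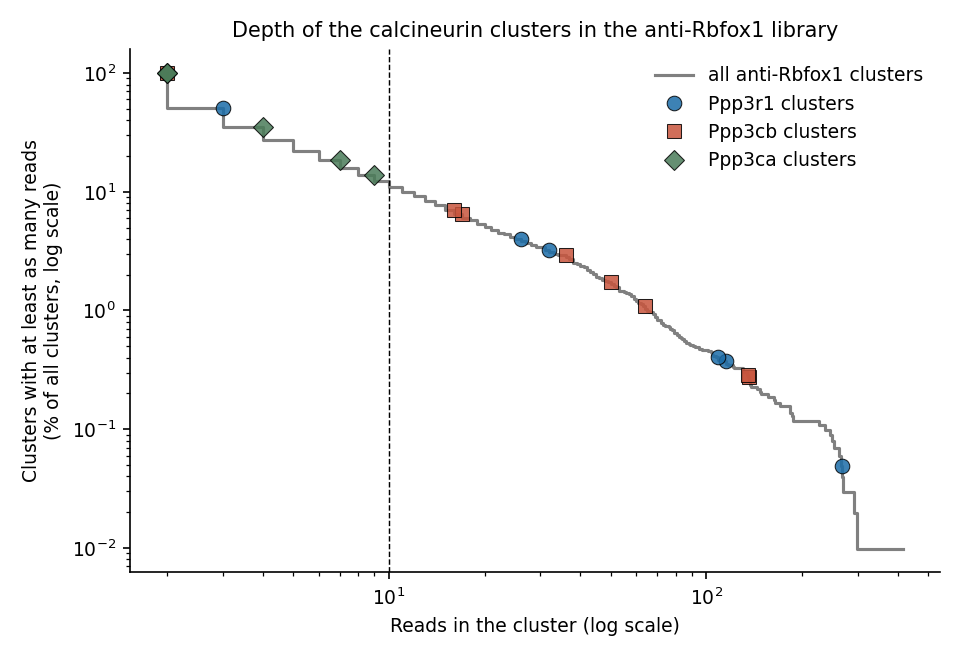
Share of all 10134 anti-Rbfox1 clusters with at least as many reads (y axis, log scale) against reads per cluster (x axis, log scale), with the clusters of each gene marked on the curve. Ppp3r1 and Ppp3cb lie mostly to the right of the dashed line at 10 reads, and Ppp3ca lies to its left.

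The share of reads on Ppp3r1 differed between the libraries by less than counting error. Shares were taken within each library, so the difference between the totals of 64820 and 569 reads does not enter them. Whether those totals reflect recovery by the antibody or depth of sequencing was not tested. Its 5 anti-Flag reads were 0.879% of that library (0.286 to 2.04), and the anti-Rbfox1 share was 0.971 times as large (95% interval 0.414 to 3.002). At an equal share, 4.85 control reads would fall on Ppp3r1, 4.003 on Ppp3cb and 0.211 on Ppp3ca. Ppp3cb and Ppp3ca held 0 control reads, and the limit behind a count of 0 was set at 3 counts, or 0.527% of that library. For Ppp3cb the anti-Rbfox1 share was 1.33 times that limit (1.21 to 1.46 from its own counting error) and 1.09 times the exact upper limit of the control, 0.646%. Counted by distinct positions it was 0.848 times the limit of 3 counts, so no difference in share from the control was established for Ppp3cb. For Ppp3ca the anti-Rbfox1 share was itself under the limit, so no difference in share was detectable at this depth.

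The control reads of Ppp3r1 lay in 2 places. Reads from 17100177 to 17100220, 17100177 to 17100221 and 17100178 to 17100221 formed a cluster with crosslinks at 17100176 and 17100177, positions that had 5 and 2 anti-Rbfox1 reads. They were 44 to 45 nt long, and 87 anti-Rbfox1 reads (15.7% of the gene's) overlapped them, in the clusters of 109 and 268 reads. The cluster of 109 reads reached its greatest depth, 70 overlapping reads, at 17100178, within the same bases. Thus 2 of the 19 calcineurin clusters overlapped control reads, against 0.572% of all anti-Rbfox1 clusters and 2.56% of those with at least 10 reads, and both rest on the same 3 control reads. Of these 3, the 2 that end at 17100221 had crosslinks 1 nt apart, and the other shared its 5′ end with 1 of them. Whether the 3 came from separate RNA molecules was not tested. The other control reads, from 17098661 to 17098697 and from 17098674 to 17098707, overlapped no anti-Rbfox1 read and lay 202 nt beyond the nearest.

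The lines of the files fall into blocks in which the chromosome order starts again, 11 in the anti-Rbfox1 and 7 in the anti-Flag file, and no source used here gives their meaning. All 12 clusters with at least 10 reads and the last 2 of Ppp3ca were in the fourth block, where 22.1% of 4981 clusters had at least 10 reads. The 3 upstream Ppp3ca clusters and the single upstream Ppp3cb cluster were in the first block, where 1.82% did, and the Ppp3r1 cluster of 3 reads was in the ninth. The 5 control reads were in the third block of their file, the one that shares places with the fourth (71 overlapping control reads). Within these blocks Ppp3r1 held 550 of 48064 anti-Rbfox1 reads (1.14%) and 5 of 185 control reads (2.70%), a ratio of 0.423 (0.180 to 1.31). Within them Ppp3cb held 0.945% and 0 control reads, where the limit was 1.62%. What part the blocks have in the depth of the clusters was not tested.

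Read lengths of Ppp3r1 and Ppp3cb were close to those of the library. The median was 27 nt in Ppp3r1 (interquartile range 22 to 34) and in Ppp3cb (23 to 34), against 28 nt (23 to 35) over all anti-Rbfox1 reads. Reads under 20 nt were 10.1% in Ppp3r1 (7.74 to 12.9), 9.87% in Ppp3cb (7.29 to 13.0) and 9.86% in the library. In Ppp3ca 7 of 24 reads were that short (29.2%, 12.6 to 51.1), among them both reads of the most upstream cluster, at 16 and 17 nt. By cluster, the median ranged from 24 nt in the Ppp3r1 cluster of 115 reads to 29.5 nt in the Ppp3cb cluster of 50, among clusters of at least 10 reads.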

How the data were processed

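Per the submitters' processing notes, the reads were aligned with Bowtie to mm9. No source used here gives versions, mismatch settings, removal of PCR copies or filters. The deposited files list 1 aligned read per line. The further position in each line lay 1 base before the 5′ end in 64820 of 64820 anti-Rbfox1 and 569 of 569 anti-Flag reads and was used as the crosslink. No reads of a library shared start, end and strand, so they had been collapsed, and reads per position count reads of different lengths. At the joining distance used for the main clusters, every anti-Rbfox1 cluster had at least 2 reads. The anti-Rbfox1 file thus held no isolated read. Whether isolated reads had been filtered out was not tested. Shares of that library and stretches without its reads therefore describe only the reads in the file.

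The members and lists were chosen with earlier results of these data known. All 3 genes were named, with every cluster of at least 10 reads, or the highest, and every cluster with a control read. The remaining small clusters were added to account for every read. Reads of 1 strand overlap where they share a base. Shares have exact Clopper-Pearson 95% intervals, ratios exact conditional ones, and a count of 0 was set at 3 counts. With 1 library per antibody no test was made. A planned list of other calcineurin pathway genes was not analysed here, since it needs an mm9 annotation. The clustering code was checked on simulated clusters set far apart, which does not test the borders of adjoining clusters. Python 3.11.15, numpy 2.4.6, pandas 2.3.3, scipy 1.17.1 and matplotlib 3.10.9 were used.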

Additional observations from a re-analysis of the deposited data

How the results depend on the processing

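Of 45 alternative values, 34 stayed near the reported value and 11 moved. Near means within the 95% interval for shares and ratios, and within 1.5 times for counts and ranks. Settings within blocks of file lines and of clusters with at least 5 reads were chosen after the data were seen. Counted by distinct positions, Ppp3r1 held 234 and Ppp3cb 232, in place of 553 and 456 reads, and the highest Ppp3r1 cluster ranked 9th. With crosslinks joined within 50 nt, the highest cluster held 74.0% of the Ppp3r1 reads and 91.7% of the Ppp3cb reads, Ppp3cb had 3 clusters, and its highest ranked 2nd. These changes follow from counting positions or from joining neighbours. Of the 5 Ppp3ca clusters, 2 had at least 5 reads. The Ppp3cb share over the control limit, 1.33, was 0.848 by positions and 0.582 within the block. It was 0.901 with near-identical reads (equal 3′ ends, crosslinks 1 nt apart) counted once. The limit is 3 counts over the control total. That total was 525 by positions, 185 within the block and 400 with near-identical reads counted once, in place of 569. These values therefore depend on the control total as well as on the Ppp3cb share. The Ppp3r1 ratio, 0.971, ran from 0.423 to 0.766 under its 3 alternatives. No paired analysis was possible because there is only 1 library for each antibody. The 569 control reads limit every comparison with the control.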
